A study of Mus musculus with 4 samples.

Results

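Expression of 10 genes of the pericentral hepatocyte programme was examined in the livers of mice with and without ADAR2, an adenosine deaminase that edits double-stranded RNA. The genes were Glul, Oat, Slc1a2, Rhbg, Cyp2e1, Cyp1a2, Tbx3, Lgr5, Axin2 and Rnf43. They were chosen by name, as known pericentral genes and known targets of Wnt signalling, from the 25655 genes in the deposited table, and all 10 were found there. Liver RNA had been sequenced in 4 libraries, 2 from HFD-WT mice and 2 from HFD-KO mice. HFD-WT mice were ADAR2+/+ with GluR-B R/R and HFD-KO mice were ADAR2-/- with GluR-B R/R, so both groups carried the allele of the glutamate receptor subunit that needs no editing. All mice were males on a B6129S background and ate a high-fat diet (HFD) for 12 weeks, starting at 5 weeks of age. The deletion was not limited to the liver, and the study gives more mice per group for its enrichment analysis of these livers than there are libraries here, without saying how mice were assigned to libraries. P-values therefore measure the spread between these libraries, which may be technical in part.

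Hepatocytes differ along the path of the blood from the portal vein to the central vein. Around the central vein, endothelial cells secrete Wnt ligands and R-spondin, which stabilise β-catenin in the adjacent hepatocytes and turn on glutamine synthesis, cytochrome P450 enzymes and a set of feedback genes. Lgr5, Axin2, Tbx3 and Rnf43 are widely used readouts of β-catenin activity, while Glul, Oat, Slc1a2, Rhbg, Cyp2e1 and Cyp1a2 carry out metabolic work of the pericentral hepatocyte.

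The libraries held between 24480798 and 28691330 counts, and 3 counts, taken as the smallest detectable level, corresponded to 0.105 to 0.123 CPM, the counts of a gene scaled to a fixed library total. That limit covers counting error only. Adarb1, which encodes ADAR2, had 15.7 and 19.8 CPM in HFD-WT and 6.23 and 9.55 CPM in HFD-KO (log2 fold change -1.17, adjusted p = 0.159 by edgeR, standard error 0.20). Its direction matched the labels, although the gene did not pass the threshold after adjustment. The label of the tissue was checked with 8 hepatocyte markers, all of which were detected, and their summed level was between 75679 and 90516 CPM. The genotypes were compared by a two-sided quasi-likelihood test in edgeR on the 12967 genes left by its filter on low counts, and p-values were adjusted over all of them by the Benjamini-Hochberg method. An exact permutation test of 2 libraries against 2 cannot reach a p under 0.33, and edgeR instead draws on the variance of all genes.

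No promoter window was matched for Tbx3, Lgr5 or Rhbg, so the sequence of these genes was not searched. For the other 7 of the 10 genes, promoter sequence was available from RefSeq, on assembly GRCm38.p6. The windows held 300 bases around the start of the transcript (250 before and 50 after). They were searched on both strands for words bound by TCF/LEF factors, the DNA-binding partners of β-catenin because the 10 genes are described as Wnt dependent, and for GCGTG, the core word of the aryl hydrocarbon receptor (AHR), because Cyp1a2 is a classic target of that receptor. The TCF/LEF words were CTTTGAT, which 3.73% of all windows hold, CTTTGTT, which 5.85% hold, and CTTTGAA, which 5.14% hold. At least 1 of them was found for 3 of the 7 genes, which had 8 windows together, and in 13.9% of all 32851 windows of the same length. The 3 genes were Slc1a2, Cyp2e1 and Cyp1a2, while the windows of Axin2 and Rnf43 held none of the TCF/LEF words. The single AHR word was in the window of Rnf43, and 32.4% of all windows hold it. A short word is a description of sequence and not a mapped binding site. The stretches that hold the words are printed 5′ to 3′ on the strand of the gene, with the word in capitals.
Slc1a2: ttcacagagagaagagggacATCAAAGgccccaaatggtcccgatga
Cyp2e1: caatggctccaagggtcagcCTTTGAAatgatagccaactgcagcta
Cyp1a2: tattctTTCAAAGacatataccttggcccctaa
Rnf43: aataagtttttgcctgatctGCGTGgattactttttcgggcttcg

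The stretch of Slc1a2 lies at chr2:102706211-102706257 on the plus strand, with the word on the opposite strand beginning 207 bases before the start. That of Cyp2e1 lies at chr7:140763664-140763710 on the plus strand, 135 bases before the start. That of Cyp1a2 lies at chr9:57683873-57683905 on the minus strand, with the word on the opposite strand 244 bases before the start. That of Rnf43 lies at chr11:87662996-87663040 on the plus strand, 71 bases before the start.

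The 10 genes spanned a wide range of expression. On the TPM scale, which divides by gene length and so allows genes to be compared, the mean over 4 libraries ran from 10502 ± 818 (SD) for Cyp2e1 to 2.40 ± 0.69 for Lgr5. Cyp2e1 alone took between 0.893% and 1.06% of all counts in a library, and the 10 genes together took between 1.24% and 1.43%. Oat (1074 ± 105 TPM) and Glul (1058 ± 57 TPM) came next, and their ranges over the libraries overlapped. Cyp1a2 followed with 205 ± 38 TPM, then Slc1a2 with 30.4 ± 1.0 TPM. Tbx3 (17.1 ± 3.6 TPM), Rnf43 (12.7 ± 2.0 TPM) and Rhbg (11.5 ± 2.4 TPM) formed a run of neighbours with overlapping ranges. Axin2 (4.07 ± 0.45 TPM) and Lgr5 were the lowest, and their ranges did not overlap. The metabolic genes thus lay mostly above the Wnt target genes, with Rhbg as the exception.

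**Figure D1:**
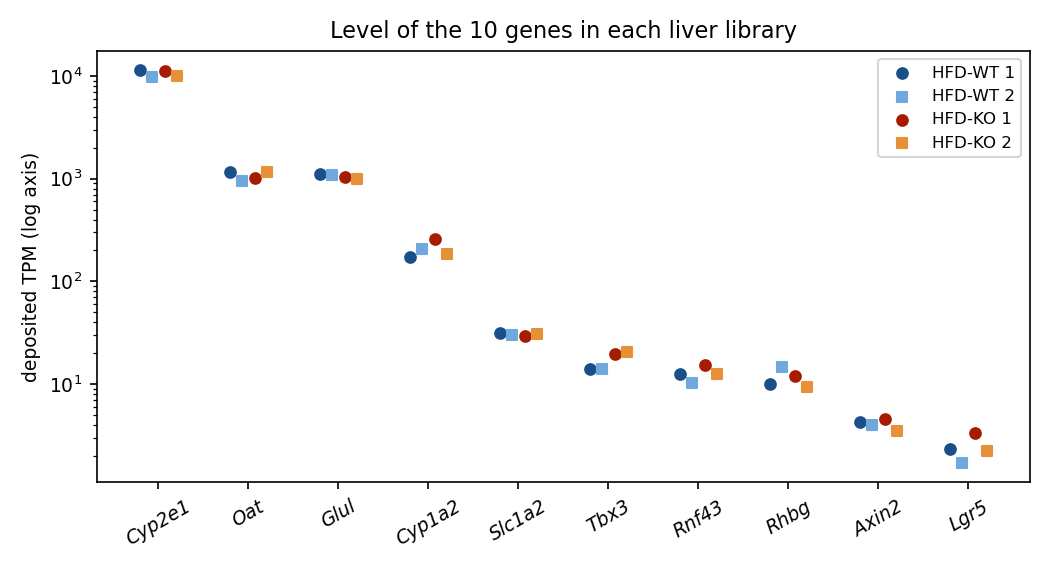
Deposited TPM (log axis) of the 10 genes in each of the 4 liver libraries, ordered by their mean. Circles and squares are replicates 1 and 2, blue tones HFD-WT and red or orange HFD-KO; levels ran from 10502 TPM for Cyp2e1 to 2.40 TPM for Lgr5, and on this scale both HFD-KO libraries lay above both HFD-WT libraries for Tbx3 and below them for Glul.

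None of the 10 genes passed an adjusted p of 0.05, and over all genes tested 0.054% were called higher and 0.0231% lower in HFD-KO at that threshold. At an unadjusted p under 0.05, Tbx3 and Rnf43 were higher and no gene was lower, while 4.25% of all genes tested were higher and 4.73% lower. Both HFD-KO libraries lay above both HFD-WT libraries for Tbx3 and Rnf43, and below them for none of the 10 genes. Over all genes tested, 20.5% lay above and 20.3% below, so 2 of 10 is a share near the background. The median log2 fold change of the 10 genes was 0.08, against 0.01 over all genes tested, and single genes ranged from -0.13 to 0.59. The median of the 10 genes was 0.03 without HFD-KO 1, 0.19 without HFD-KO 2, and 0.18 and 0.06 without HFD-WT 1 and HFD-WT 2. The median of the 6 metabolic genes was 0.05, and leaving out each library in turn moved it to values between -0.03 and 0.13. That of the 4 Wnt target genes was 0.44. It was 0.17 without HFD-KO 1, 0.54 without HFD-KO 2, 0.55 without HFD-WT 1 and 0.26 without HFD-WT 2. In a bulk liver sample, fewer cells of a type and less RNA per cell cannot be told apart.

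**Figure D2:**
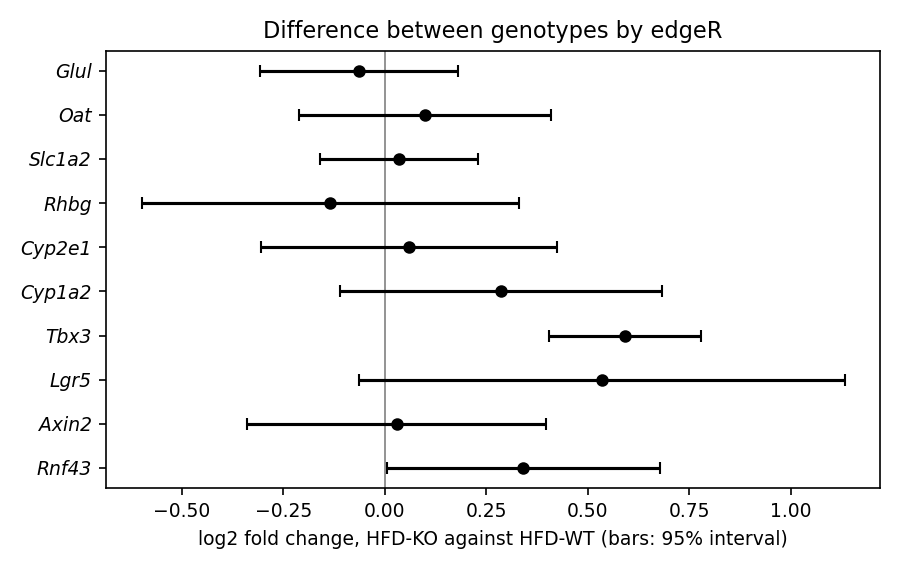
Fitted difference (log2 fold change, HFD-KO over HFD-WT) for each of the 10 genes by edgeR, with bars for the 95% interval. The intervals of Tbx3 and Rnf43 lie above 0, and those of the other 8 genes include 0.

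Glul encodes glutamine synthetase, which captures the ammonia that has escaped the urea cycle, and is the classic marker of the hepatocytes next to the central vein. It lies on chromosome 1 from 153775690 to 153785469 (GRCm39, as for all gene positions that follow, plus strand, ENSMUSG00000026473). Glul was at 1877 and 1799 CPM in HFD-WT and at 1822 and 1696 CPM in HFD-KO. The groups overlapped, since HFD-KO 1 stood above HFD-WT 2, although on the deposited TPM scale, which has no TMM scaling, both HFD-KO libraries (1035 and 990 TPM) lay below both HFD-WT libraries (1114 and 1095 TPM). HFD-KO was at 0.957 of the HFD-WT level, with a 95% interval from 0.808 to 1.13 and an adjusted p of 0.892 by edgeR. With 192311 reads over the libraries, counting error was small (0.50% in the library with the fewest reads). The interval rested on the spread between libraries and on the variance that edgeR draws from all genes.

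Oat encodes ornithine aminotransferase, which turns ornithine into glutamate and so feeds the glutamine synthetase step. It lies on chromosome 7 from 132159207 to 132178127 (minus strand, ENSMUSG00000030934), overlapped by Fgfr2 on the same strand, where 2293 reads were counted over the libraries against 136950 on Oat. Oat was at 1380 and 1105 CPM in HFD-WT and at 1260 and 1400 CPM in HFD-KO. The highest and the second-highest library came from different genotypes, and the ratio was 1.07 (95% interval 0.863 to 1.33, adjusted p = 0.862 by edgeR).

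Slc1a2 encodes the glutamate transporter GLT-1, best known from astrocytes and also made by pericentral hepatocytes. It lies on chromosome 2 from 102489004 to 102621129 (plus strand, ENSMUSG00000005089). Slc1a2 varied least of the 10 genes over the libraries relative to its level, with 193 and 178 CPM in HFD-WT and 187 and 193 CPM in HFD-KO. The ratio was 1.025, with a 95% interval from 0.896 to 1.17. Of 6 brain markers, Snap25 had no read in any library, while the astrocyte gene Gfap was between 0.29 and 0.69 CPM and the neuronal gene Rbfox3 between 0.52 and 1.03 CPM. Aqp4 was between 4.63 and 7.31 CPM and Syt1 between 6.63 and 9.04 CPM. Aldh1l1, an astrocyte marker that hepatocytes also express strongly, was between 854 and 1098 CPM.

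Rhbg encodes an ammonium transporter of the Rhesus family and lies on chromosome 3 from 88150181 to 88162016 (minus strand, ENSMUSG00000104445). It shares its strand and part of its span with Gm38392, on which 152 reads were counted, against 1208 on Rhbg. Rhbg had 9.81 and 13.9 CPM in HFD-WT and 12.3 and 9.21 CPM in HFD-KO. The genotypes interleaved, and the spread within a genotype exceeded the difference between them (ratio 0.911, 95% interval 0.660 to 1.26).

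A wider list of 20 genes of glutamine, glutamate and ammonia handling was examined beside these genes. Of the 13 that passed the filter, none passed after adjustment. At an unadjusted p under 0.05, 1 was higher and none lower, against 4.25% and 4.73% of all genes tested. The gene was Slc38a2, a sodium-coupled amino acid transporter, with 75.1 and 94.2 CPM in HFD-WT and 101 and 107 CPM in HFD-KO (unadjusted p = 0.0346 by edgeR). The median log2 fold change of the 13 genes was 0.07.

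Cyp2e1 encodes the ethanol-inducible cytochrome P450 and lies on chromosome 7 from 140343652 to 140354900 (plus strand, ENSMUSG00000025479). Its levels were 10460 and 8739 CPM in HFD-WT and 10697 and 9318 CPM in HFD-KO. In each genotype replicate 1 stood above replicate 2, and the step between replicates was larger than the difference between genotypes. The ratio was 1.04, with a 95% interval from 0.810 to 1.34 and an adjusted p of 0.936 by edgeR.

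Cyp1a2 encodes the P450 that oxidises caffeine and aromatic amines, and lies on chromosome 9 from 57584220 to 57590986 (minus strand, ENSMUSG00000032310). It was at 168 and 196.5 CPM in HFD-WT and at 263 and 182 CPM in HFD-KO. HFD-KO 1 stood above all other libraries, and HFD-KO 2 lay between the HFD-WT libraries. Its log2 fold change was 0.29 with a standard error of 0.17 (adjusted p = 0.671 by edgeR). It was 0.53 without HFD-KO 2, with an adjusted p of 0.0011 in a fit that called 1.69% of all genes tested higher, and -0.0043 without HFD-KO 1, so the size of the difference rested on a single library. Of 7 other targets of AHR, 5 passed the filter. None passed after adjustment, and at an unadjusted p under 0.05 Nqo1 and Ugt1a6a, enzymes of quinone reduction and glucuronidation, were lower in HFD-KO (log2 fold changes -0.28 and -0.27). Over all genes tested, 4.73% were lower at an unadjusted p under 0.05. Cyp1a1, the target that responds most sharply to AHR ligands, was between 0.51 and 0.87 CPM in all libraries.

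Tbx3 stood apart from the other 9 genes. It encodes a T-box transcription repressor that acts downstream of β-catenin in liver and lies on chromosome 5 from 119808734 to 119822789 (plus strand, ENSMUSG00000018604). Tbx3 was at 36.7 and 35.5 CPM in HFD-WT and at 54.2 and 54.5 CPM in HFD-KO, from 1062, 977, 1427 and 1302 reads. The replicates of a genotype lay close together and the genotypes were well separated. The level in HFD-KO was 1.51 times that in HFD-WT (95% interval 1.32 to 1.71), a log2 fold change of 0.59 with a standard error of 0.08. The unadjusted p was 0.00012, in place 22 among the 12967 genes tested, and the adjusted p was 0.0693 by edgeR, which misses the threshold. The log2 fold change lay between 0.54 and 0.61 under 11 other settings of the analysis, and the adjusted p was under 0.05 in 4 of them. These were DESeq2's Wald test (adjusted p = 0.0008), the edgeR fit without a filter on low counts (0.0059), and the fits without HFD-KO 1 (0.0002) or HFD-KO 2 (0.0005). DESeq2 called 0.424% of all genes tested higher in HFD-KO, and the fit without a filter called 0.468% of 17301 genes higher. The fits without HFD-KO 1 and without HFD-KO 2 called 2.83% and 1.69% higher, against 0.054% with all libraries. Without HFD-WT 2 the adjusted p of Tbx3 was 0.747, and with the replicate number as a block it was 0.135.

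Rnf43 encodes a ubiquitin ligase that removes Frizzled receptors from the cell surface, a negative feedback on Wnt signalling, and lies on chromosome 11 from 87553548 to 87626365 (plus strand, ENSMUSG00000034177). It had 28.6 and 23.0 CPM in HFD-WT and 36.5 and 28.9 CPM in HFD-KO. The groups did not overlap, but HFD-KO 2 was barely above HFD-WT 1, and on the TPM scale it was below it (12.5 against 12.6 TPM). The log2 fold change was 0.34 (standard error 0.14), with an unadjusted p of 0.047 and an adjusted p of 0.546 by edgeR. It was 0.50 without HFD-KO 2 (adjusted p = 0.0126, where 1.69% of genes were called higher) and 0.16 without HFD-KO 1. Library size alone as the scaling and a minimum mean of 1 CPM as the filter each left Tbx3 as the only member at an unadjusted p under 0.05.

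Lgr5 encodes the R-spondin receptor that marks stem cells in the intestine and pericentral hepatocytes in the liver. It lies on chromosome 10 from 115286216 to 115423685 (minus strand, ENSMUSG00000020140). Lgr5 had 5.49 and 3.96 CPM in HFD-WT and 8.32 and 5.36 CPM in HFD-KO, from 159, 109, 219 and 128 reads. HFD-KO 1 was the highest library, and HFD-KO 2 lay just under HFD-WT 1. The log2 fold change of 0.53 was close to that of Tbx3, but its standard error was 0.26 and its 95% interval ran from -0.06 to 1.13 (adjusted p = 0.603 by edgeR). It was 0.81 without HFD-KO 2 (adjusted p = 0.0279, where 1.69% of genes were called higher) and 0.18 without HFD-KO 1. Counting error alone was 9.58% in the library with the fewest Lgr5 reads, the largest of the 10 genes.

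Axin2 encodes a scaffold of the β-catenin destruction complex and is often taken as the most direct reporter of canonical Wnt signalling. It lies on chromosome 11 from 108811175 to 108841609 (plus strand, ENSMUSG00000000142). Its levels were 10.8 and 9.78 CPM in HFD-WT and 12.0 and 9.002 CPM in HFD-KO. Both the highest and the lowest library were HFD-KO, and the log2 fold change was 0.03, with a 95% interval from -0.34 to 0.40. That interval includes the fitted log2 fold change of Rnf43 (0.34) and not those of Tbx3 and Lgr5. The interval of Lgr5 (-0.06 to 1.13) in turn includes the value of Axin2, and the differences between genes were not tested.

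**Figure D3:**
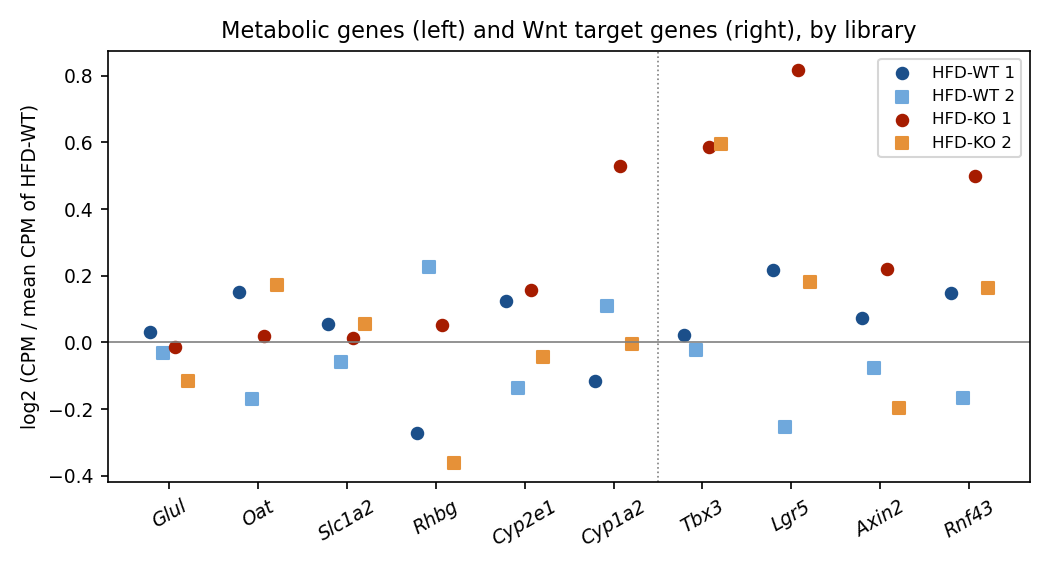
CPM of each of the 10 genes in each library on a log2 scale, relative to the mean of the HFD-WT libraries, with the 6 metabolic genes left of the dotted line and the 4 Wnt target genes right of it. Both HFD-KO points of Tbx3 lie together above the HFD-WT points, while those of Cyp1a2, Lgr5, Axin2 and Rnf43 are spread, with HFD-KO 1 on top.

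Replicates differed in a common direction for several of the genes. HFD-KO 1 was above HFD-KO 2 for 7 of the 10 genes, against 50.7% of all genes tested, with Oat, Slc1a2 and Tbx3 as the exceptions. The ratio of HFD-KO 1 to HFD-KO 2 was 1.55 for Lgr5, 1.45 for Cyp1a2, 1.33 for Axin2, 1.33 for Rhbg and 1.26 for Rnf43, and 0.99 for Tbx3. HFD-WT 1 was above HFD-WT 2 for 8 of the 10 genes, against 49.7% of all genes tested, with Cyp1a2 and Rhbg as the exceptions. The ratio was 1.39 for Lgr5 and 1.24 for Rnf43. For Axin2, Lgr5 and Rnf43 the higher HFD-WT library therefore stood near or above the lower HFD-KO library.

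A further 9 Wnt target genes were examined, of which 7 passed the filter. No gene of the list was called in either direction at an adjusted or an unadjusted p under 0.05, and the median log2 fold change was 0.12, between -0.37 for Myc and 0.54 for Tcf7. Tcf7, a TCF/LEF factor, had 3.66 and 3.27 CPM in HFD-WT and 6.19 and 3.89 CPM in HFD-KO (adjusted p = 0.589 by edgeR). Nkd1, an inhibitor of Dishevelled, had 5.84 and 4.98 CPM in HFD-WT and 9.54 and 5.53 CPM in HFD-KO (log2 fold change 0.48, adjusted p = 0.639 by edgeR). Notum, a secreted Wnt deacylase with the highest level of the list by length, had 39.2 and 33.4 CPM in HFD-WT and 42.7 and 36.2 CPM in HFD-KO. Of these 7 genes, 6 were higher in HFD-KO 1 than in HFD-KO 2 and all 7 were higher in HFD-WT 1 than in HFD-WT 2, with Myc, a growth regulator with many other inputs, as the exception among the HFD-KO libraries.

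Of 25 genes for Wnt ligands, R-spondins and their secretion, 9 passed the filter and 10 had no read in any library. None of the 9 was called at an adjusted or an unadjusted p under 0.05, and their median log2 fold change was -0.09. Wnt5b, usually a ligand of the β-catenin-independent branch, had the highest level by length (6.70 TPM on average), with 7.98 and 8.94 CPM in HFD-WT and 9.57 and 9.59 CPM in HFD-KO. Rspo3, the R-spondin of the central vein endothelium, had 5.77 and 5.71 CPM in HFD-WT and 5.20 and 4.27 CPM in HFD-KO (log2 fold change -0.27, adjusted p = 0.694 by edgeR). The log2 fold changes of Wnt2 and Wnt9b, the Wnt ligands of the same cells, were -0.10 and -0.30. Rspo3, Wnt2 and Wnt9b also belong to 6 markers of pericentral endothelial cells, whose summed level was 23.8 and 27.0 CPM in HFD-WT and 23.1 and 23.3 CPM in HFD-KO, with no gene called and a median log2 fold change of -0.13.

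Of 14 receptors and co-receptors, 9 passed the filter. Fzd4, a Frizzled receptor prominent in endothelium, was lower at an unadjusted p of 0.0402 by edgeR, with 49.8 and 44.4 CPM in HFD-WT and 37.6 and 41.9 CPM in HFD-KO, and it did not pass after adjustment (0.522). Lrp5, the co-receptor with the highest level by length (21.5 TPM), had a log2 fold change of -0.07. Of 16 genes of signal transduction, 15 passed the filter, 2 were higher at an unadjusted p under 0.05 and none passed after adjustment. Over all genes tested, 4.25% were higher and 4.73% lower at an unadjusted p under 0.05. Tcf7l2, the main TCF/LEF factor of hepatocytes, had 12.9 and 11.7 CPM in HFD-WT and 15.1 and 15.8 CPM in HFD-KO (log2 fold change 0.32, adjusted p = 0.421 by edgeR). Bcl9, a co-activator that binds β-catenin, had a log2 fold change of 0.39 (adjusted p = 0.473 by edgeR). Ctnnb1, which encodes β-catenin and had the highest level of the list by length (82.4 TPM), had a log2 fold change of -0.02. Of 12 antagonists, 4 passed the filter and none was called. Kremen1, a receptor of the Dickkopf antagonists, had the highest level (5.18 TPM) and a log2 fold change of 0.04.

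Among other pericentral genes, 1 of 21 was called after adjustment. All 21 passed the filter. Gstm3, a glutathione S-transferase of the mu class, was at 76.8 and 93.2 CPM in HFD-WT and at 30.7 and 36.1 CPM in HFD-KO (log2 fold change -1.35, adjusted p = 0.0235 by edgeR, standard error 0.12). Without adjustment, 4 genes of the list were higher and 5 lower at a p under 0.05, against 4.25% and 4.73% of all genes tested. The higher genes were Avpr1a, the vasopressin receptor of hepatocytes, and the P450 genes Cyp2c29, Cyp2c37 and Cyp2c50. The lower genes were Gstm3, Gstm1, Gstm2, Cyp3a11 and Slc13a3. Avpr1a had 5.87 and 5.24 CPM in HFD-WT and 11.0 and 13.5 CPM in HFD-KO (log2 fold change 1.14, adjusted p = 0.0693 by edgeR). Cyp3a11, the major drug-metabolising P450 of the mouse, had 1546 and 1263 CPM in HFD-WT and 691 and 831 CPM in HFD-KO (log2 fold change -0.88, adjusted p = 0.115 by edgeR). The median of the list was 0.01, with genes from -1.35 to 1.14. The mu-class transferases and the Cyp2c genes share sequence with close paralogs, and the authors' handling of reads that fit several genes is not given in the sources used here.

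**Figure D4:**
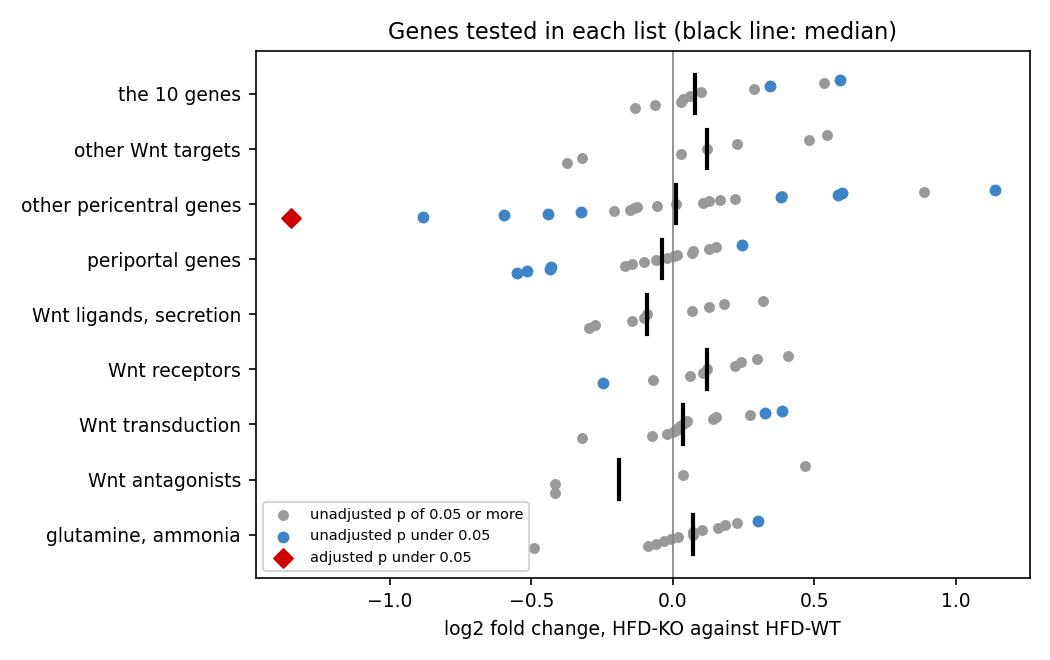
Log2 fold change of each gene tested (points) and the median (black line) for the 10 genes and 8 lists of related genes. Blue points have an unadjusted p under 0.05, the red diamond an adjusted p under 0.05; the medians lie between -0.19 and 0.12, and the other pericentral genes run from -1.35 for Gstm3 to 1.14 for Avpr1a.

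Markers of other liver cells were measured in the same libraries. The summed level of 7 Kupffer cell markers was 227 and 290 CPM in HFD-WT and 180 CPM in each HFD-KO library, 6 of the 7 lay below both HFD-WT libraries in both HFD-KO libraries (20.3% of all genes tested did so), and their median log2 fold change was -0.51. The sum of 7 stellate cell markers was 304 and 340 CPM in HFD-WT and 276 and 211 CPM in HFD-KO. The sum of 7 cholangiocyte markers was 73.0 and 91.4 CPM in HFD-WT and 60.6 and 51.1 CPM in HFD-KO, most of it Spp1, and the other 6 summed to 8.67 and 7.45 CPM in HFD-WT and to 6.84 and 8.29 CPM in HFD-KO. The sum of 8 endothelial markers was 296 and 324 CPM in HFD-WT and 287 and 299 CPM in HFD-KO. Lyve1 was the only endothelial marker at an unadjusted p under 0.05 (lower, log2 fold change -0.70, unadjusted p = 0.0016 by edgeR). Erythroid markers summed to 757 and 600 CPM in HFD-WT and to 811 and 1146 CPM in HFD-KO. At an unadjusted p under 0.05, 5 of 7 Kupffer, 3 of 7 stellate and 1 of 7 cholangiocyte markers were lower. At the same threshold, 3 of 5 erythroid markers were higher. Over all genes tested, 4.73% were lower and 4.25% higher. None of these markers passed after adjustment. The Kupffer and stellate cell sums were thus lower and the erythroid sum higher in both HFD-KO libraries. The Kupffer cell sum was 180 CPM in each HFD-KO library, while the stellate and erythroid sums differed between these libraries. The part of these cell types in the difference in Tbx3 was not tested.

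**Figure D5:**
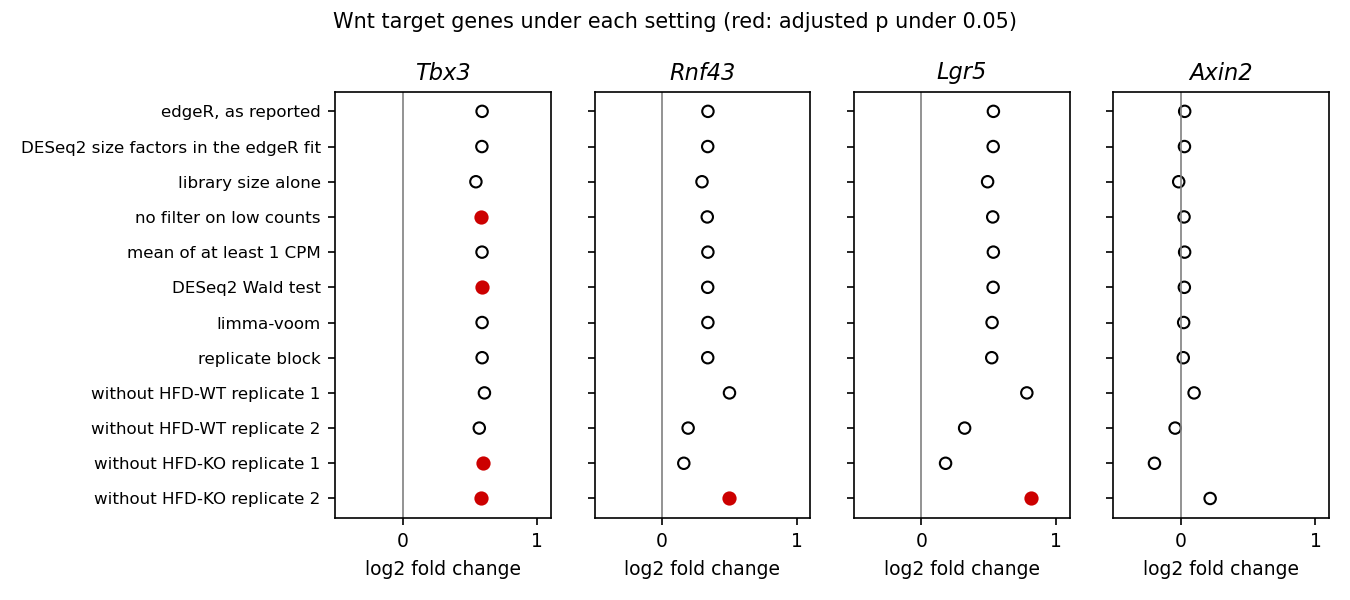
Log2 fold change of the 4 Wnt target genes under the reported edgeR fit and 11 other settings, with filled red points for an adjusted p under 0.05. Tbx3 stays between 0.54 and 0.61, while Rnf43, Lgr5 and Axin2 move when a library is left out, Axin2 to either side of 0.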

How the data were processed

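Liver RNA of 2 HFD-WT and 2 HFD-KO libraries was studied. After TRIzol extraction, strand-specific libraries (MGI Tech kit) were read as pairs of 100 bases, aligned with the tool of the same maker, and counted against GENCODE in Partek Genomics Suite. Versions, whether counting used the strand and how reads with several matches were treated are not given in the sources used here. The paper's methods name mm10, the submitters' processing notes name mm10 and GRCm39, and the positions in the table are those of GRCm39.

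The authors deposited whole-number read counts per gene, which were the values tested. The deposited TPM values were used to compare levels between genes, and the deposited RPKM values to check their order. The CPM column that was deposited is scaled to a library size adjusted by the authors, was treated as a score, and was not used. CPM given here were computed from the counts with TMM-scaled library sizes.

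Counts were analysed with edgeR 4.0.16 in R 4.3.3 (filterByExpr, TMM, glmQLFit, glmQLFTest). The common biological coefficient of variation was 0.102. DESeq2 1.42.0, limma-voom (limma 3.58.1), other scalings and filters, a replicate block and leaving out each library were the alternatives. The fit was tested on simulated data. Replicate numbers occur in both groups without a stated pairing, and same-numbered libraries did not deviate together (correlation -0.0764 over 12967 genes), so no pairing was used.

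The 10 genes and the gene lists were chosen with earlier results of these data known, and no list was tested as a set. All 10 genes are named, with Adarb1. From each list other than the cell type markers, every gene with an adjusted p under 0.05 is named. So are up to 3 genes with the smallest unadjusted p under 0.05 and, for lists of Wnt components, the gene with the highest TPM. For cell type markers the summed level is given, and single genes under that threshold are not all named. Genes named beyond this rule were chosen after their values were seen: these were genes overlapping a member, Wnt2, Wnt9b, Rspo3, Tcf7, Nkd1, Notum, Myc, Cyp1a1, the brain markers, and those completing a count of 5 or fewer.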

Additional observations from a re-analysis of the deposited data

How the results depend on the processing

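The number of all genes called after adjustment was 10 in the reported fit, 6 with library size alone or with a mean of at least 1 CPM, 162 without a filter, 115 with DESeq2, 20 with a replicate block, and between 0 (without HFD-WT 2) and 705 (without HFD-KO 1) when a library was left out. The cause was not tested. Of the 10 genes, 1 was called (Tbx3) without a filter and with DESeq2, each with a log2 fold change of 0.59, and between 0 and 4 when a library was left out. The count higher at an unadjusted p fell from 2 to 1 with library size alone, with a mean of at least 1 CPM and with DESeq2. It rose to 3 without a filter and with the replicate block (Lgr5, unadjusted p = 0.0265 and 0.0207 by edgeR). Over all genes tested, the count higher was 551 in the reported fit, 522 with a mean of at least 1 CPM and 298 with DESeq2. It was 698 of 17301 without a filter and 469 with the replicate block. With library size alone, 346 genes were higher and 894 lower at an unadjusted p under 0.05, against 551 and 613 with TMM, and the log2 fold changes of Slc1a2 and Axin2 turned to -0.010 and -0.016. Leaving out a library gave ranges across 0 for Cyp2e1 (-0.062 to 0.19), Cyp1a2 (-0.0043 to 0.53), Oat (-0.051 to 0.26), Slc1a2 (-0.018 to 0.088), Rhbg (-0.37 to 0.13) and Axin2 (-0.20 to 0.22), and ranges above 0 for Tbx3 (0.57 to 0.61), Lgr5 (0.18 to 0.81) and Rnf43 (0.16 to 0.50). A lone library was assumed to vary like the other group. With the replicate block, none of the 10 genes passed after adjustment. Of 110 fold changes of single genes under other settings, 92 kept their direction and their side of the threshold. The order of levels was the same with RPKM. With 2 libraries a group and reads from 615 (Lgr5) to 1047436 (Cyp2e1), the spread between libraries limits most of the 10 genes.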

Other observations

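Periportal genes, expressed at the other end of the hepatocyte plate, were read in the same fit. All 16 passed the filter and none was called after adjustment. At an unadjusted p under 0.05, 1 was higher and 4 lower, against 4.25% and 4.73% of all genes tested. The median log2 fold change was -0.04. Igf1, the circulating growth factor, was the higher gene, with 348 and 327 CPM in HFD-WT and 378.5 and 422 CPM in HFD-KO (unadjusted p = 0.0338 by edgeR). Aldh1b1, a mitochondrial aldehyde dehydrogenase, had 103 and 105 CPM in HFD-WT and 76.7 and 77.1 CPM in HFD-KO (log2 fold change -0.43, adjusted p = 0.167 by edgeR). Hsd17b13, a lipid droplet enzyme, had 543 and 604 CPM in HFD-WT and 453 and 399 CPM in HFD-KO (log2 fold change -0.43, adjusted p = 0.289 by edgeR). Sds, a serine dehydratase, and Apoa4, an apolipoprotein, were the other lower genes, with log2 fold changes of -0.55 and -0.52.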
